A study of Homo sapiens with 4 samples.

Results

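EZH2 peaks were examined around the start sites of 10 genes for secreted developmental signals: the Hedgehog ligands SHH and IHH, the WNT ligands WNT1, WNT3A, WNT6 and WNT10A, the fibroblast growth factors FGF3, FGF4 and FGF8, and NOG (Noggin), which is itself no Hedgehog, WNT or FGF protein but a secreted inhibitor of bone morphogenetic proteins. Members were all deposited peaks with at least 1 base within 20 kb of one of these gene starts, whose hg19 positions were known to the nearest 1 kb. They numbered 19 of 31077 peaks in the H3.1-WT list and 14 of 35016 in the H3.1-K27M list. The assay was CUT&RUN: an antibody against EZH2 brings a nuclease to the chromatin that EZH2 occupies, and the fragments it cuts free are sequenced. It was done on HEK293, a widely used cell line from human embryonic kidney, transduced with a lentivirus, selected with G418 and induced with doxycycline to carry either the H3.1-WT or the H3.1-K27M histone. All 4 libraries share this treatment, and HEK293 cells also keep their own histone H3 genes. The labels do not say whether either line was a single clone. Each genotype had 1 EZH2 library and 1 library made with anti-rabbit HRP secondary antibody alone, the negative control against which its peaks were called. The libraries called H3.1-K27M here are titled H31, and the genotype label of the same samples names the mutation.

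EZH2 is the enzyme of the Polycomb complex PRC2, which methylates histone H3 at K27 and keeps developmental genes silent in cells that do not use them. PRC2 is known to gather at CpG-rich starts of such genes. Hedgehog, WNT and FGF ligands pattern the embryo by signalling to neighbouring cells, and Noggin shapes the same tissues by holding back BMP signals. H3.1-K27M replaces the methylated lysine with methionine, a mutation known from childhood glioma.

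With 1 library per group there is no replicate check, and no test between the genotypes was made. The lists hold no read counts, so depth is unknown. Fold enrichment (EZH2 signal over the background of the authors' caller) and −log10 q are the authors' own values for single peaks. They come from separate calls and share no known scale, so values of the lists are set side by side without measuring a change in bound EZH2. Fewer cells with EZH2 at a gene and less EZH2 per cell cannot be told apart in these libraries.

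The sequences at the gene starts differed in their CG content. RefSeq promoters of GRCh38.p14 (250 bases before to 50 after the start) were matched by symbol for 7 of the 10 genes. FGF4, FGF8 and NOG had no entry in the table used. Of the genes shown, FGF3 has the highest EZH2 call of the set, WNT3A the most CG pairs, SHH the fewest, and WNT10A a CG-rich start with only a weak call. Each is printed 5′ to 3′ on the gene's strand with every CG in capitals. They lie at chr11:69819367-69819666 on the minus strand (FGF3), chr1:228006748-228007047 on the plus strand (WNT3A), chr7:155812414-155812713 on the minus strand (SHH) and chr2:218880602-218880901 on the plus strand (WNT10A). These positions belong to GRCh38.p14 and were not set against the hg19 peaks.
FGF3: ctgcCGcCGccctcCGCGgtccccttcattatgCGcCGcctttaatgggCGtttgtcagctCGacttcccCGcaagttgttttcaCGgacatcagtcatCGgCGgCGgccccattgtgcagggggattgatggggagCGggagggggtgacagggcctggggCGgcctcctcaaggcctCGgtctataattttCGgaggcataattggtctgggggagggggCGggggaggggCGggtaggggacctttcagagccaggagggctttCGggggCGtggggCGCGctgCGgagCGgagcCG
WNT3A: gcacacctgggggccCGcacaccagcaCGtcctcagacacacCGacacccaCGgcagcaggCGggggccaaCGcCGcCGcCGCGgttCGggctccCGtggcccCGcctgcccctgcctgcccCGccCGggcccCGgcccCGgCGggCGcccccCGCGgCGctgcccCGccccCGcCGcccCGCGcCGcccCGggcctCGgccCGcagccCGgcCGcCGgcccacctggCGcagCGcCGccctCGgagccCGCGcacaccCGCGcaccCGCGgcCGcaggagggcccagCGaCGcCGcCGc
SHH: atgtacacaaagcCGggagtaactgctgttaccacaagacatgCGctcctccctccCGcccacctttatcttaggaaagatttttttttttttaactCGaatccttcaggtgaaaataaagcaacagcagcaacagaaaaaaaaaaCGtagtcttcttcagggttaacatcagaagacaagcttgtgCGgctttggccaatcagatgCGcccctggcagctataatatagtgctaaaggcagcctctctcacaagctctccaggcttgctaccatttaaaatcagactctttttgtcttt
WNT10A: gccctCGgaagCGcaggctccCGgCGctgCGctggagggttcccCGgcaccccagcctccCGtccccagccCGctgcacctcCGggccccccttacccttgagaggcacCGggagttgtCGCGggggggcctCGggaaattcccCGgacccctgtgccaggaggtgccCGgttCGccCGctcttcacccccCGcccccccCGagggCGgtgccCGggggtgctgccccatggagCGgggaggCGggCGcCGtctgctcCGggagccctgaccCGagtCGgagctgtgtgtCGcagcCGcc

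The WNT3A promoter held 49 CG pairs, and 1.60% of the 35114 promoters of this length in the table held as many. IHH and WNT6 held 37 each, WNT1 held 34, WNT10A 30 and FGF3 26, all above the median of 14 over the whole table. The SHH promoter stood apart with 7 CG pairs and a G+C content of 43.3%, against a table median of 58.7%. CG is a palindrome, so its count is the same on both strands, and 96.0% of all promoters held at least 1. These counts describe the printed windows only.

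Every one of the 10 genes had an H3.1-WT peak within 20 kb of its start, and 9 had an H3.1-K27M peak, all but FGF8. Over the autosomes, 29.0% of tiles of the same 40 kb length held an H3.1-WT peak and 23.0% an H3.1-K27M peak. The 9 genes with peaks in both lists compare with 14.9% of tiles. Peaks also lay close to the starts. In H3.1-WT all 10 genes had a peak within 1 kb of the start, where 3.13% of autosomal tiles of 2 kb held one. In H3.1-K27M 8 genes did, against 3.1% of tiles, and the exceptions were WNT10A and FGF8. Tiles include assembly gaps and gene-poor sequence, so they are a level for the lists and not a set of comparable genes. The genes were also chosen with earlier results of these data known, and a difference from the tiles was not tested.

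**Figure D1:**
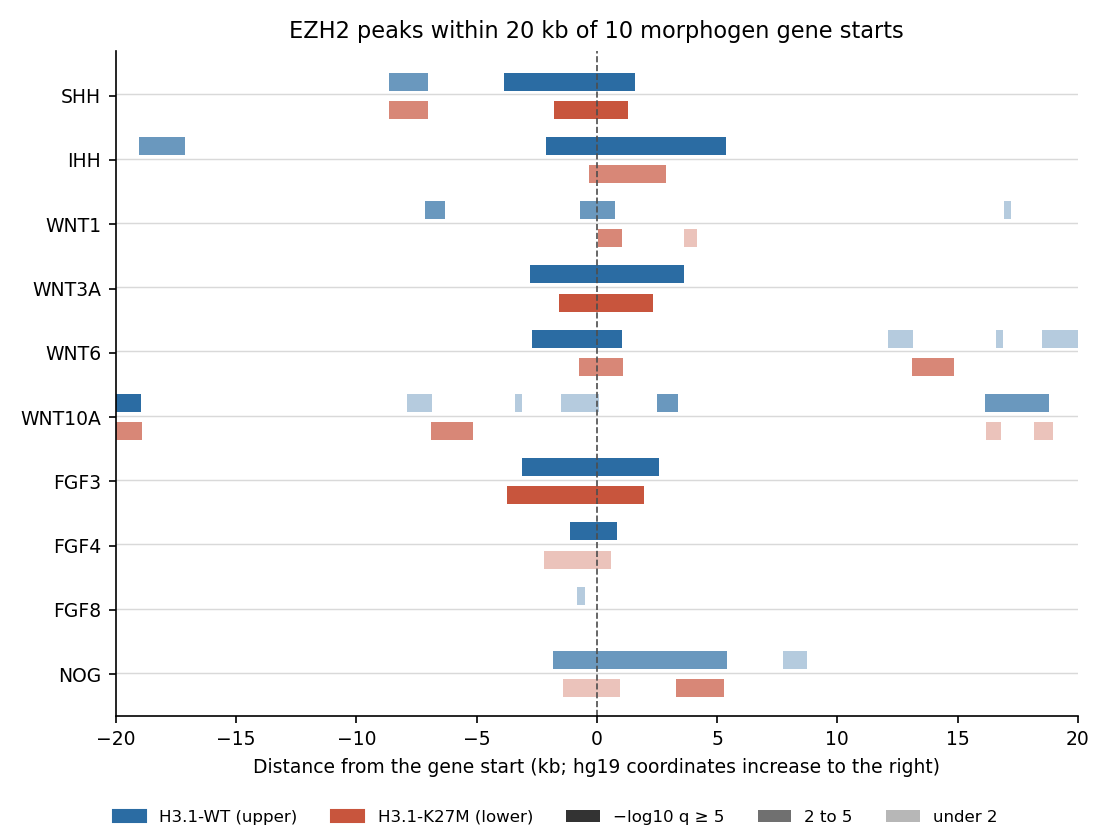
Position of each EZH2 peak within 20 kb of the 10 gene starts, in kb from the start along hg19, with H3.1-WT peaks above and H3.1-K27M peaks below each line. Darker bars have a higher −log10 q. A bar lies within 1 kb of the dashed line, the start, for each gene and list except WNT10A and FGF8 in H3.1-K27M, and the WNT6 and WNT10A rows share peaks because their starts lie 20 kb apart.

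Of the 10 genes, FGF3 had the highest and FGF8 the lowest value for its strongest H3.1-WT peak. FGF3, a ligand used in inner ear and tooth development, carried a single peak over its start in each list. In H3.1-WT this peak lay on chromosome 11 from 69630875 to 69636584 (hg19), spanned 5710 bases and had a fold enrichment of 22.7 and a −log10 q of 71.2. In H3.1-K27M it ran from 69630279 to 69635945, was 5667 bases wide and had a fold enrichment of 14.4 and a −log10 q of 33.2. Ordered by −log10 q, FGF3 held rank 6 of the 31077 peaks of H3.1-WT and rank 4 of the 35016 of H3.1-K27M. The lists have different lengths, so the ranks describe each list and show no change between them. The peaks shared 5071 bases, and both reached over the start into the gene and upstream of it, by 3125 and 2584 bases in H3.1-WT and by 3721 and 1945 bases in H3.1-K27M. The FGF3 promoter printed above holds 26 CG pairs, fewer than 5 of the other 6 matched promoters.

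FGF4, an early embryonic and limb bud ligand, starts 44 kb from FGF3, and no peak of either list was shared by their 20 kb windows. In H3.1-WT the FGF4 peak (chromosome 11, 69588883 to 69590858) was 1976 bases wide, at a fold enrichment of 5.19 and a −log10 q of 5.68. In H3.1-K27M the peak (69587805 to 69590596) was wider, at 2792 bases, with a fold enrichment of 3.27 and a −log10 q of 1.57. FGF4 was the only one of the 10 genes with more covered bases in H3.1-K27M than in H3.1-WT. In its own list the H3.1-K27M peak held rank 17517 by −log10 q, near the middle, and the H3.1-WT peak held rank 1688 in its list. FGF8, the organiser signal of the midbrain boundary and limb, had 1 short peak in H3.1-WT, 331 bases wide and 487 bases from the start on the side of lower coordinates (chromosome 10, 103535183 to 103535513). Its fold enrichment was 3.22 and its −log10 q 1.34, near the lowest value of that list, 1.01. No H3.1-K27M peak lay within 20 kb of FGF8, so the lists differ there only by a call near the limit.

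Both Hedgehog genes had a wide peak over the start in each list. At SHH, the ligand that patterns the ventral neural tube and the limb, the H3.1-WT peak (chromosome 7, 155601142 to 155606596) was 5455 bases wide, at a fold enrichment of 10.9 and a −log10 q of 23.6. The H3.1-K27M peak (155603211 to 155606278) was 3068 bases wide, at a fold enrichment of 6.77 and a −log10 q of 9.94, and it lay entirely inside the H3.1-WT peak. On the upstream side the peaks ended 1596 and 1278 bases from the start, and on the side of the gene they reached 3858 and 1789 bases, so most of the length missing from the H3.1-K27M call lay over the gene. The SHH promoter printed above has the fewest CG pairs of the 7 matched genes. That window was not set against the hg19 peaks, and the CG content under the peaks was not measured. A smaller peak downstream of the SHH start, about 7.02 kb away, was called in nearly identical form in both lists, with 1624 bases for H3.1-WT and 1634 for H3.1-K27M and 1616 bases in common. Its −log10 q was 2.65 and 2.01.

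At IHH, which controls the maturation of cartilage in growing bone, the H3.1-WT peak (chromosome 2, 219922908 to 219930375) was 7468 bases wide, the widest of all 19. It had a fold enrichment of 7.17 and a −log10 q of 10.9. The H3.1-K27M peak (219924686 to 219927862) was 3177 bases wide, at a fold enrichment of 4.44 and a −log10 q of 3.63. Here the H3.1-K27M call kept 2862 bases upstream of the start and 314 bases over the gene, against 5375 and 2092 bases in H3.1-WT. Such splits at a start are approximate for every gene, and the 314 bases are fewer than the 1 kb to which starts are known. A further H3.1-WT peak of 1919 bases, 17.1 kb downstream of the start and with a −log10 q of 3.93, had no H3.1-K27M counterpart. In RefSeq gene order CFAP65 precedes IHH, and this peak was not assigned to either gene. With that peak counted, covered length around IHH was 9.39 kb for H3.1-WT and 3.18 kb for H3.1-K27M. The ratio of 0.338 was the lowest among the 9 genes with peaks in both lists. For the region over the IHH start alone it was 0.425.

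Among the WNT genes, the start peaks of WNT3A and WNT6 reached a −log10 q of at least 5 in H3.1-WT and those of WNT1 and WNT10A did not, while in H3.1-K27M only WNT3A had such a peak. WNT3A, a ligand needed to form the posterior body axis, had 1 peak in each list. In H3.1-WT it spanned 6400 bases (chromosome 1, 228192228 to 228198627) with a fold enrichment of 10.3 and a −log10 q of 24.7. In H3.1-K27M it spanned 3947 bases (228193412 to 228197358) with a fold enrichment of 5.26 and a −log10 q of 7.99. The H3.1-K27M peak lay inside the H3.1-WT peak and was shorter on both sides, with 1588 against 2772 bases upstream and 2358 against 3627 bases over the gene. In H3.1-WT the WNT3A peak was among the top 0.431% of its list by −log10 q, and in H3.1-K27M among the top 0.711%.

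WNT6 and WNT10A, ligands of epithelial development, start 20 kb apart on chromosome 2, so 4 H3.1-WT peaks and 2 H3.1-K27M peaks counted for both genes and once in the totals. The strongest peak of the pair lay over the WNT6 start. It was 3727 bases wide in H3.1-WT (219722324 to 219726050), with a fold enrichment of 5.89 and a −log10 q of 7.24, and 1847 bases wide in H3.1-K27M (219724241 to 219726087), with a fold enrichment of 4.79 and a −log10 q of 4.30. On the side of the gene the peaks ended 1050 and 1087 bases from the start, whereas upstream they reached 2676 bases for H3.1-WT and 759 for H3.1-K27M. The shorter H3.1-K27M calls thus lacked the upstream part at WNT6 and the part over the gene at SHH. WNT10A, known for its role in teeth and hair, had an H3.1-WT peak of 1597 bases at its start (219743496 to 219745092). Its fold enrichment was 3.11 and its −log10 q 1.25. This peak passed the given start by 92 bases, less than the 1 kb to which starts are known, so it may end before the start. The nearest H3.1-K27M peak lay 5.16 kb upstream and was 1737 bases wide, with a −log10 q of 2.22. It met an H3.1-WT peak of 1070 bases in 56 bases only. About 16.2 kb downstream of the WNT10A start, H3.1-WT had 1 peak of 2662 bases and H3.1-K27M had shorter peaks of 655 and 764 bases in the same place.

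WNT1, the midbrain and dorsal neural tube ligand, had peaks of −log10 q under 5 in both lists, and its promoter held 34 CG pairs. The H3.1-WT peak over the start (chromosome 12, 49371292 to 49372746) was 1455 bases wide, at a fold enrichment of 3.85 and a −log10 q of 2.40. The H3.1-K27M peak (49372051 to 49373066) was 1016 bases wide, at a fold enrichment of 4.02 and a −log10 q of 2.58. It began 51 bases past the start, less than the 1 kb to which starts are known, and shared 696 bases with the H3.1-WT peak. Another H3.1-WT peak, 6.33 kb upstream with a −log10 q of 2.82, was the strongest near WNT1. In RefSeq gene order WNT10B, another WNT ligand, precedes WNT1, and this peak was not assigned to either gene.

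NOG had wide peaks of −log10 q under 5. In H3.1-WT a single peak of 7254 bases (chromosome 17, 54669160 to 54676413) covered the start, with a fold enrichment of 4.34 and a −log10 q of 4.22. In H3.1-K27M the same stretch held separate peaks of 2337 bases over the start (54669614 to 54671950) and 1982 bases beyond it (54674306 to 54676287). Their fold enrichments were 3.44 and 3.65 and their −log10 q values just under 2 and 2.03. Both lay wholly inside the H3.1-WT peak. A further H3.1-WT peak of 1005 bases, 7.73 kb from the start with a −log10 q of 1.21, had no H3.1-K27M counterpart. With it the gene had 2 peaks in each list, and 4.32 kb of covered length in H3.1-K27M against 8.26 kb in H3.1-WT. The H3.1-WT peak over the NOG start was among the top 0.647% of its list by width and among the top 9.50% by −log10 q.

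**Figure D2:**
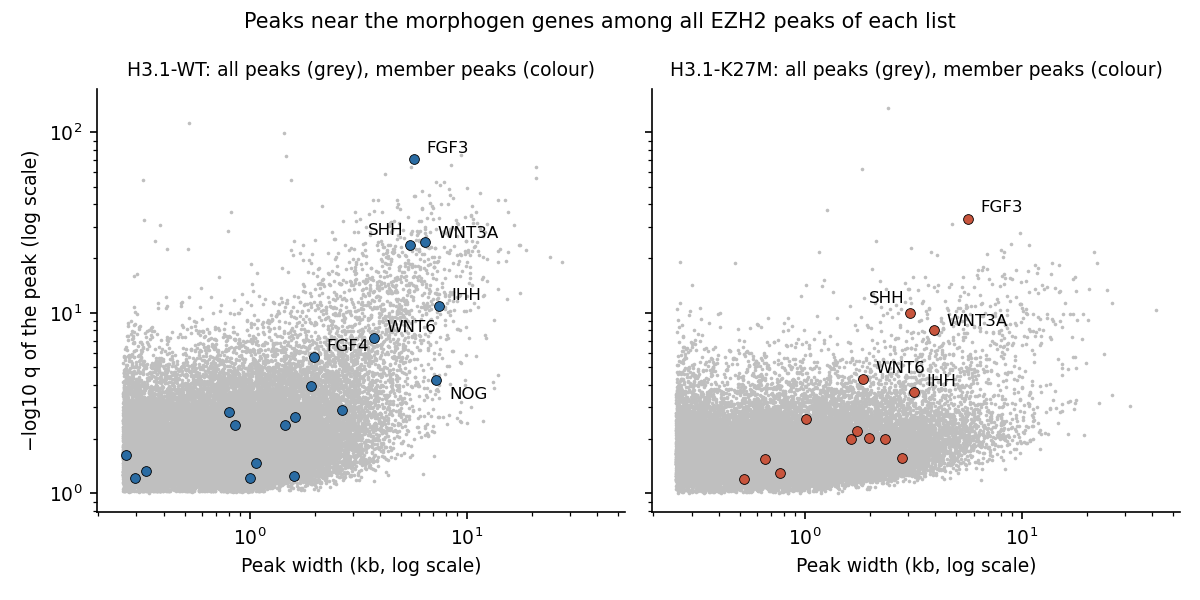
Width in kb and −log10 q of every peak, both on log scales, for H3.1-WT (left) and H3.1-K27M (right). Grey points are all peaks and coloured points the 19 and 14 peaks near the 10 genes; names mark the stronger peaks over a start. FGF3 stands near the top of both panels, at 71.2 and 33.2, while NOG in H3.1-WT is wide at 7.25 kb with a −log10 q of 4.22.

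Strong calls were present at more of the genes in H3.1-WT. They were also more common in the whole H3.1-WT list, so this is no result about these genes in particular. A −log10 q of at least 5 was reached by 6 of the 19 H3.1-WT peaks and 3 of the 14 H3.1-K27M peaks, against 6.78% and 1.87% of all peaks of the lists. In H3.1-WT these were the start peaks of SHH, IHH, WNT3A, WNT6, FGF3 and FGF4, and the WNT6 peak also falls within 20 kb of WNT10A, which makes 7 genes. In H3.1-K27M they were those of SHH, WNT3A and FGF3. Of autosomal 40 kb tiles, 2.91% held such a peak for H3.1-WT and 0.925% for H3.1-K27M. At a minimum of 10, 4 genes remained in H3.1-WT (SHH, IHH, WNT3A and FGF3; 1.09% of tiles) and FGF3 alone in H3.1-K27M (0.225% of tiles), with SHH just below it at 9.94. The median −log10 q of the members was 2.82 for H3.1-WT and 2.13 for H3.1-K27M, beside 1.81 and 1.57 over all peaks. Their median width was 1624 bases against 778 for all H3.1-WT peaks, and 1915 bases against 825 for all H3.1-K27M peaks.

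Covered length was lower in H3.1-K27M around 9 of the 10 genes. Peaks covered 51.9 kb of the joined 20 kb windows for H3.1-WT and 31.1 kb for H3.1-K27M, a ratio of 0.600. Around SHH the lengths were 7.08 and 4.70 kb, around WNT3A 6.40 and 3.95 kb, and around WNT6 6.57 and 3.58 kb. WNT10A had 7.50 and 4.24 kb and WNT1 2.55 and 1.54 kb. FGF3 was nearly equal at 5.71 and 5.67 kb, a ratio of 0.992, so the gene with the strongest peak had the ratio nearest to 1. At least 5 kb was covered around 7 genes in H3.1-WT, where 1.32% of autosomal tiles had that much, and around FGF3 alone in H3.1-K27M, where 2.32% had. WNT6 and WNT10A are both among the 7 and the 9 genes, and their windows share covered bases, so these are not counts of separate windows. Fewer bases in H3.1-K27M were also common elsewhere: this held for 59.8% of autosomal tiles with a peak in either list and for 75.7% of those with an H3.1-WT peak of −log10 q at least 5. The last share is for tiles chosen by their H3.1-WT value, and no choice by H3.1-K27M was made. The members' count lies in the direction of that background, and a difference from it was not tested.

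**Figure D3:**
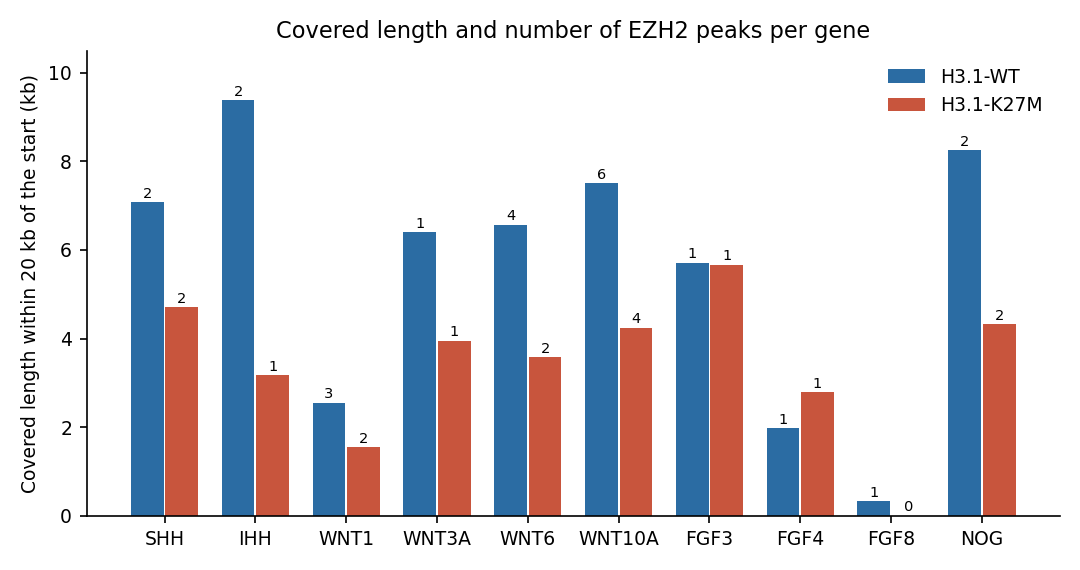
Length in kb covered by EZH2 peaks within 20 kb of each gene start, 1 bar per list, with the number of peaks above each bar. H3.1-WT bars are higher for 9 genes, FGF3 is nearly level at 5.71 and 5.67 kb, and FGF4 has 2.79 kb in H3.1-K27M against 1.98 kb.

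Most of the covered length lay next to the starts in both lists. Within 2 kb of a start 69.6% of bases were covered for H3.1-WT and 51.8% for H3.1-K27M, beside 1.15% and 1.20% of all autosomal bases. From 2 to 5 kb the values were 23.1% and 8.93%, and from 5 to 10 kb they were 5.29% and 3.66%. From 10 to 20 kb they were 2.71% and 0.788%. The stretch from 2 to 5 kb therefore showed a larger gap between the lists, 13.9 against 5.4 kb, than the stretch within 2 kb did in proportion, 27.9 against 20.7 kb. From 5 to 10 kb the lists were closer again, at 5.3 against 3.7 kb, and from 10 to 20 kb they held 4.9 against 1.4 kb. The gap thus did not grow steadily with distance. At 10 to 20 kb the H3.1-K27M value was below that of all autosomes, and every other value was above it.

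**Figure D4:**
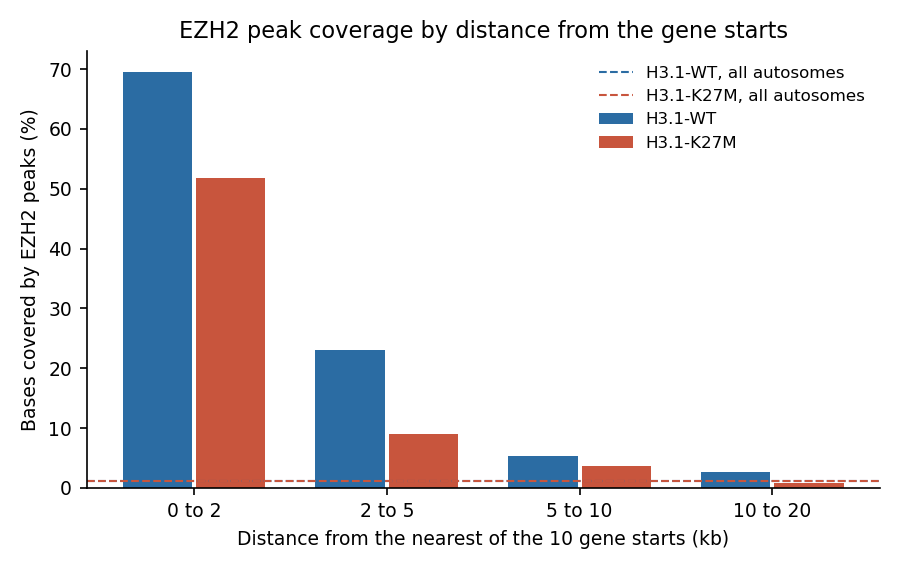
Percent of bases covered by EZH2 peaks at 0 to 2, 2 to 5, 5 to 10 and 10 to 20 kb from the nearest of the 10 gene starts, for each list, with dashed lines at the share of all autosomal bases (1.15% and 1.20%). Coverage falls from 69.6% to 2.71% in H3.1-WT and from 51.8% to 0.788% in H3.1-K27M.

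Nearly all H3.1-K27M peaks near these genes met an H3.1-WT peak in at least 1 base. An H3.1-WT peak overlapped 13 of the 14 H3.1-K27M peaks by at least 1 base (92.9%, exact Clopper-Pearson 95% interval 66.1% to 99.8%), against 31.6% of all H3.1-K27M peaks. The exception was a peak of 524 bases near WNT1 with a −log10 q of 1.20. An H3.1-K27M peak overlapped 11 of the 19 H3.1-WT peaks (57.9%, 33.5% to 79.7%), against 36.0% of all H3.1-WT peaks. The intervals cover counting error only, and the peaks of neighbouring genes are not independent. With a reciprocal overlap of 50% the shares were 35.7% for H3.1-K27M and 26.3% for H3.1-WT. The share over all peaks was not computed under that rule. The 31.6% and 36.0% are for 1 base and give no level for these shares. Wider peaks meet others more easily, and the median H3.1-K27M width was 1915 bases near these genes against 825 over all peaks. The shares were not adjusted for width. The 8 without a counterpart had −log10 q values from 1.21 to 3.93, and the peaks at the WNT10A start and beside FGF8 were among them. Merging the lists gave 20 regions, 11 with a peak in each list, 8 called only in H3.1-WT and 1 only in H3.1-K27M, beside 20.6%, 40.4% and 39.1% of all autosomal regions. Of the 11 shared regions 8 had fewer bases in H3.1-K27M, which is 72.7%, against 57.9% of all shared autosomal regions. Among shared regions with an H3.1-WT peak of −log10 q at least 5, this was so for 5 of 6 near these genes and for 74.6% over the autosomes. Narrower H3.1-K27M calls were thus common at strong H3.1-WT sites in general and are no result about these genes in particular. These sites were chosen by their H3.1-WT value, and the reverse choice, by strong H3.1-K27M peaks, was not made. The share is therefore no general property of the H3.1-K27M list.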

How the data were processed

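EZH2 and HRP CUT&RUN libraries of HEK293 cells were analysed through the 2 lists of broad peaks, each called on 1 EZH2 against 1 HRP library. Per the submitters' processing notes the build was hg19 and the tools were Bowtie2 2.3.5.1, MACS2, cutadapt, deepTools and Picard; roles and parameters are not given in the sources used here. The fold enrichment (a linear ratio) and the −log10 p and −log10 q of each peak are deposited as the authors' caller gave them; p was not used. The lowest −log10 q was 1.01 for H3.1-WT peaks and 1.00 for H3.1-K27M peaks. No peak ended past an hg19 chromosome end (0 peaks; 179 past hg38 ends).

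Gene starts in hg19 were given with the list of genes. Positions are 1-based. Windows, tiles, overlaps and merged regions were computed with Python 3.11.15, numpy 2.4.6, pandas 2.3.3 and scipy 1.17.1, with chromosome lengths from GenomeInfoDb 1.38.1, and tested on simulated lists against bedtools 2.31.1. Strands, gene order and promoters came from RefSeq tables of GRCh38.p14. No hg19 annotation was used, so exons and introns under the peaks are not given. All 10 genes are named; for each list the peak nearest to the start and the strongest are given. The genes and lists were chosen with earlier results of these data known. Other genes of the Hedgehog, WNT, FGF and BMP pathways were listed beforehand but not analysed here, since no hg19 positions for them were used. Alternatives changed the distance, the −log10 q minimum, the list length and the overlap rule. The cell line could not be checked against markers in peak lists.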

Additional observations from a re-analysis of the deposited data

How the results depend on the processing

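The ratio of covered length stayed below 1 under each alternative run, from 0.413 at a −log10 q of at least 5 to 0.633 within 10 kb, and that of peak numbers from 0.500 to 0.786, beside 0.600 and 0.737. At a −log10 q of at least 5, H3.1-WT kept 6 peaks, 6 genes with a peak within 1 kb and 30736 covered bases, and H3.1-K27M 3 peaks, 3 genes with a peak, 3 within 1 kb and 12682 bases, with 3 genes in both lists and 100% of H3.1-K27M peaks overlapped. At a minimum of 2, H3.1-K27M kept 9 peaks. At a minimum of 3, added after seeing the data, H3.1-WT kept 8 peaks, and H3.1-K27M 5 peaks, 5 genes within 1 kb and 17706 bases, with 100% overlapped. These minimums leave fewer peaks by construction. With peaks within 5000 bases joined, 100% of H3.1-K27M peaks were overlapped. A reciprocal overlap of 50% lowered the shares of peaks overlapped to 26.3% for H3.1-WT and 35.7% for H3.1-K27M. Shares over all peaks of the lists were not computed under the alternatives, so these shares have no level to be read beside. A distance of 10 or 50 kb, midpoints, equal list lengths of 15538 peaks, and leaving out either gene pair kept the counts within 1.5 times. Of 432 single-gene values under alternatives, 331 stayed within 1.5 times. The highest fold enrichment and −log10 q of a gene left without a peak are not among them. For a gene that keeps a peak, a −log10 q minimum or equal list lengths cannot change its highest −log10 q. Such values count as unchanged by construction. FGF8 in H3.1-K27M, without a peak in any setting, counts as unchanged. No paired analysis was possible because no group has replicate libraries. Strength and width of peaks depend on depth, which is unknown.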

Other observations

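Between 20 and 50 kb from the starts the lists held few further peaks. Leaving out those near another of the 10 genes, H3.1-WT had 3 and H3.1-K27M had 2, and both of the latter were overlapped by H3.1-WT peaks. Upstream of SHH, the H3.1-K27M peak 47.8 kb from the start was 1930 bases wide with a −log10 q of 2.11, and the H3.1-WT peak there was 517 bases wide with a −log10 q of 1.15. This was the reverse of the start peak of SHH, which was wider in H3.1-WT. Past WNT10A, peaks 28.9 kb from its start were 737 bases wide for H3.1-WT and 532 for H3.1-K27M, with −log10 q values of 3.82 and 2.43. The remaining peak, of H3.1-WT alone, lay 21.0 kb from the WNT1 start with a −log10 q of 1.21. No peak of either list lay between 20 and 50 kb from IHH, WNT3A, FGF8 or NOG.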
